A study of Mus musculus with 11 samples.

Results

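The genes of the T cell receptor alpha locus were taken as those whose symbol starts with Trav (variable segments), Traj (joining segments) or Trac (the constant region), followed by nothing or a digit. These were 189 of the 55471 genes in the count table, namely 128 Trav, 60 Traj and Trac, and the annotation places all of them on the plus strand of chromosome 14 (GRCm38). The symbol rule used no measured value.

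A T cell builds its receptor alpha chain by joining 1 variable segment to 1 joining segment in the thymus, and the joined exon is spliced to the constant region in the transcript. The joint falls in the loop that touches peptide and MHC, so the choice of segments is part of a T cell's specificity. The alpha locus can rearrange again on the same chromosome, replacing a joint with one between a variable segment farther upstream and a joining segment farther downstream, so usage along the locus is studied as a record of that order. In mature CD4+ T cells the rearrangement is finished, and segment usage describes the mixture of clones in a sample.

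RNA was sequenced from CD4+ cells of lymph nodes (inguinal and axillary) of C57BL/6 mice in 2 groups, with 6 GLC libraries (replicates 6, 78, 9, 10, 11 and 12) and 5 WT libraries (replicates 1 to 5). GLC mice carry Pggt1bfl/fl with Lys-Cre, which the labels describe as a conditional deletion in macrophages; Pggt1b encodes the beta subunit of an enzyme that attaches geranylgeranyl lipids to proteins. GLC replicate 78 is RNA pooled from 2 mice. All cells were enriched with a bead kit that leaves CD4+ cells untouched and were cultured with concanavalin A, a plant lectin that activates T cells, at 1.25 µg/ml for 2 h before RNA was prepared. Lys-Cre is driven by a lysozyme promoter active in myeloid cells, so the level of Pggt1b in these cells is no check of the genotype; it was 37.9 to 57.2 CPM (counts scaled to a common library size, with TMM scaling factors) in GLC and 33.3 to 44.6 CPM in WT. No age or sex is stated in the labels. P-values measure the spread among these libraries, since nothing in the labels says how separate the mice of a group were in litter, cage or preparation.

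Library totals were 11308285 to 14620148 counts. The cell type on the labels fits the defining markers: Cd3e averaged 274 ± 27.1 CPM in GLC and 282 ± 20.8 CPM in WT (SD, n = 6 and 5), and Cd4 averaged 341 ± 26.2 CPM in GLC and 372 ± 22.5 CPM in WT. Cd8a, the marker of CD8 T cells, had 9 counts over the GLC libraries and 4 over the WT libraries, although Cd8b1 averaged 11.6 ± 1.57 CPM in GLC and 10.4 ± 2.39 CPM in WT. Trdc, the constant region of the delta chain, averaged 27.9 ± 6.37 CPM in GLC and 22.8 ± 6.33 CPM in WT. Of the 6 gamma delta markers tested, 3 had a log2 fold change above 0 and 3 below. The summed level of 8 B cell markers lay between 6.57 and 18.2 CPM in GLC and between 7.02 and 16.1 CPM in WT. The part of these other cells in the values below was not tested. The summed level of 6 macrophage markers lay between 3.85 and 5.84 CPM in GLC and between 3.80 and 5.40 CPM in WT, and no tested gene of the marker lists for CD8, gamma delta, natural killer, B, plasma or myeloid cells passed the adjusted threshold. In bulk samples, fewer cells of a type and less RNA per cell cannot be told apart.

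The sequences below show what the counts are assigned to. The first set holds the joining segments of highest count share, with Traj11 and with the pseudogene Traj14, and with Traj18 and Traj33, the joining segments of the invariant natural killer T cell receptor and of the mucosal-associated invariant T cell receptor in mice. Each is the whole annotated exon in its GENCODE M21 transcript (GRCm38, plus strand), 5′ to 3′, and the capitals mark the codons TTN, GGN, any codon and GGN in a row, which hold the phenylalanine and 2 glycines that most joining segments share. Traj31 lies at chr14:54187895-54187951, Traj18 at chr14:54200777-54200842 and Traj11 at chr14:54207139-54207197.
Traj31: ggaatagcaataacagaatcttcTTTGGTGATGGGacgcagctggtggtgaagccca
Traj2: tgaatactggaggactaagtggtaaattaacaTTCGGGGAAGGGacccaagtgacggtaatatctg
Traj6: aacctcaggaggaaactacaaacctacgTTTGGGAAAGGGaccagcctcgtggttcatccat
Traj15: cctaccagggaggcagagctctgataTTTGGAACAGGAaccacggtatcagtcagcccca
Traj18: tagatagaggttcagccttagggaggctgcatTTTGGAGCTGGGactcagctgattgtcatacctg
Traj11: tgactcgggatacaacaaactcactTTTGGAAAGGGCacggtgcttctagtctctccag
Traj33: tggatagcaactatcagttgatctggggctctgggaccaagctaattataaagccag
Traj14: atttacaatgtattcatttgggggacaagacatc

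The motif was found on the plus strand in 44 of the 51 joining segments that are not annotated as pseudogenes (86.3%) and in 2 of the 9 pseudogenes (22.2%), and on the other strand in none of the 60. Traj33 and Traj14 hold no such run of codons. The next set holds the last 60 bases of the 5 variable segments of highest count share, with capitals on TACTTCTGN, the tyrosine, phenylalanine and cysteine that end the framework before the joint. Trav3-3 spans chr14:53665929-53666506 and Trav14d-3-dv8 spans chr14:53078452-53079045, each with 1 intron that the printed stretch does not include.
Trav3-3: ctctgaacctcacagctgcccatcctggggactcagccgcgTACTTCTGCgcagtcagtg
Trav14d-3-dv8: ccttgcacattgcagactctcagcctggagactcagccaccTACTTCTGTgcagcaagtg
Trav8d-1: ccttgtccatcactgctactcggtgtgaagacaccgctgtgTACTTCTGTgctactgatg
Trav5-1: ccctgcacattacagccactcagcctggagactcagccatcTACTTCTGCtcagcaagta
Trav9-4: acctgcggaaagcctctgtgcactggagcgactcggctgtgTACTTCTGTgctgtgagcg

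TACTTCTGN lay within the last 30 bases of 56 of the 108 variable segments that are not pseudogenes (51.9%) and of 9 of the 20 pseudogenes (45.0%), and in that window on the other strand in none.

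The constant region carried most of the counts of the locus. Trac spans chr14:54220521-54224206 with 935 exonic bases. Trac had 9426, 8021, 8202, 7112, 8120 and 7079 counts in GLC replicates 6, 78, 9, 10, 11 and 12, against 9722, 9249, 9095, 7309 and 8747 counts in WT replicates 1 to 5. Scaled for library size, Trac averaged 653 ± 77.5 CPM in GLC and 648 ± 72.3 CPM in WT, and the groups overlapped. The log2 fold change of GLC over WT was 0.01 (SE 0.09, 95% interval -0.19 to 0.21; adjusted p = 0.9997, edgeR quasi-likelihood test over all genes, two-sided), and its sign turned when any 1 of 5 libraries was left out.

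Variable segments together held 1369 to 1565 counts per library in GLC and 1348 to 1804 in WT, which is 116 ± 7.12 CPM in GLC and 120 ± 12.8 CPM in WT. Joining segments together held 586 to 866 counts in GLC and 634 to 883 in WT, which is 55.0 ± 10.2 CPM in GLC and 53.5 ± 6.03 CPM in WT. Both sums overlapped between the groups, and the direction of either turned with 1 library: the ratio of GLC to WT means was 0.966 for variable segments and 1.01 without WT 1, and 1.03 for joining segments, 0.957 without GLC 9 and 0.991 without WT 2. Their ratio did as well: there were 0.475 ± 0.0880 joining segment counts per variable segment count in GLC and 0.448 ± 0.0647 in WT. GLC 9 had the highest summed joining level of all 11 libraries, 74.3 CPM, against 45.0 to 54.8 CPM in the other GLC libraries and 45.5 to 62.5 CPM in WT. Joining segments are short, with a median of 61 annotated bases against 359 for variable segments and 935 for Trac, and the sources used here do not say how reads that span a joint were assigned.

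**Figure D1:**
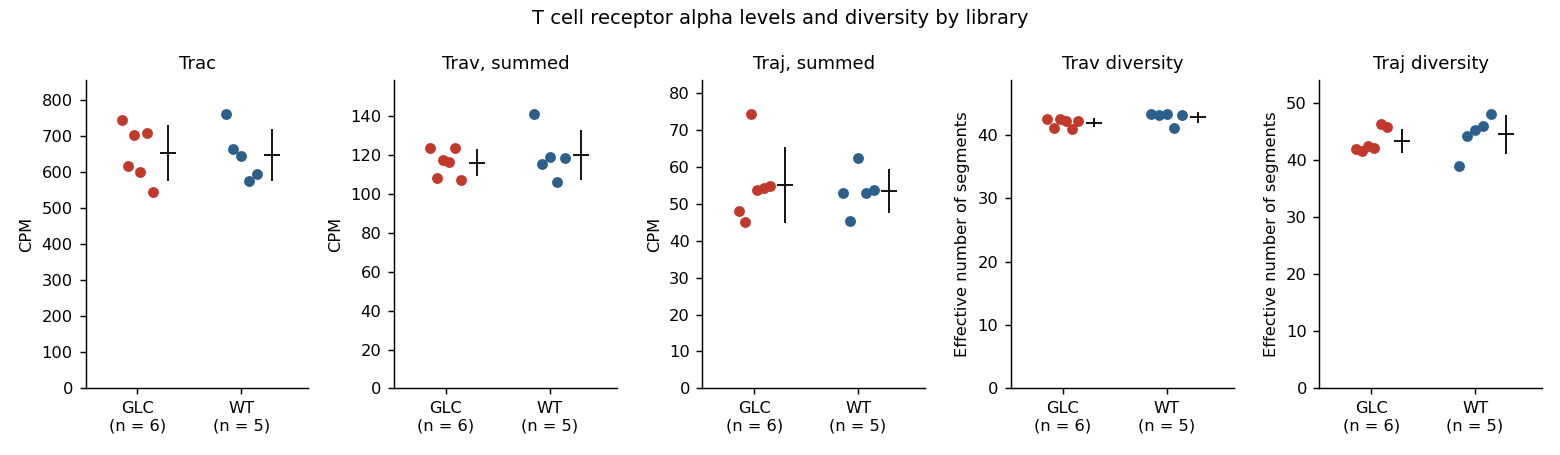
Levels in CPM of Trac, of summed Trav and of summed Traj, and the effective number of Trav and Traj segments, for each GLC library (red, n = 6) and each WT library (blue, n = 5); black marks are means ± SD and every axis starts at 0. The groups overlap in all 5 measures, and GLC 9 is the highest library for summed Traj at 74.3 CPM.

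Many of the 128 variable segments had no counts. Counts were found for 69 of them, 53 had counts in every library, and 59 were at 0 in all 11 libraries; all 60 joining segments had counts in at least 1 library. The middle of the mouse locus is duplicated, with copies that carry d or n in their symbols, and the zeros fell mostly on segments that repeat the sequence of other genes. Of the 42 variable segments in which no stretch of 50 bases is found in only 1 gene, 41 were at 0 and the remaining one, Trav13n-3, had 3 counts, at exons that overlap another annotated gene. Of the 86 with at least some such unique stretches, 68 had counts, 16734 in all, and 18 were at 0. The split was the same with stretches of 30 bases, and with 75 bases 40 of 41 without a unique stretch were at 0.

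**Figure D2:**
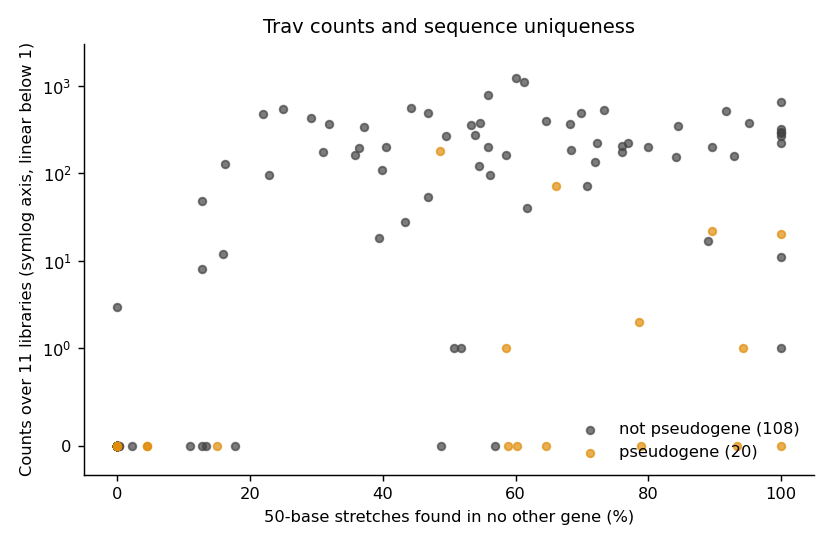
Counts summed over 11 libraries for each of 128 variable segments (y, symlog axis) against the percentage of its 50-base stretches found in no other gene (x); gray points are the 108 segments that are not pseudogenes and orange points the 20 pseudogenes. Segments at 0% unique lie at 0 counts but for 1 with 3 counts, and 68 of the other 86 have counts.

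A 0 in this table was therefore read as no assigned reads and not as no use of the segment. Trav11 and Trav11d, the variable segments of the invariant natural killer T cell receptor, are such a case. Their annotated transcripts are identical over the 342 bases compared, and neither had a count in any library. A count of 0 allows up to 3 counts, which is 0.192 to 0.219% of variable counts in a GLC library and 0.166 to 0.223% in a WT library, and it limits uniquely assigned reads only. Trav11n, another copy, annotated as a pseudogene, differs from Trav11 at 8 of 343 bases and had 2 counts in all. The stretch from base 177 to base 266 of the 3 transcripts follows, with capitals on the 4 bases at which Trav11n differs there.
Trav11: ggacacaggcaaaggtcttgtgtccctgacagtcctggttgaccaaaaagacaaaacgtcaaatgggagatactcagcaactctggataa
Trav11d: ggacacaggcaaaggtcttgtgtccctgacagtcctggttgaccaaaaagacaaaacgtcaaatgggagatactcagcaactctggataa
Trav11n: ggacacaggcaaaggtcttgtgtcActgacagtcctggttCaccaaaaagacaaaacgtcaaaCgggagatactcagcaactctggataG

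Some segments were low without being indistinguishable from others. Trav18 is fully unique by this measure and had 1 count over the 11 libraries, Trav16 (51.8% unique) and Trav7n-4 (50.7%) had 1 each, and Trav6-7-dv9 (48.8%) and Trav7-6 (56.9%) had none; none of these 5 is annotated as a pseudogene, and they were singled out after their values were seen, as were the other segments outside the naming rule here. By contrast, the pseudogenes Trav9n-1 and Trav4d-2 had 181 and 72 counts. Pseudogenes made up 1.68 ± 0.450% of variable counts in GLC and 1.92 ± 0.478% in WT.

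Among the variable segments with counts, the assigned counts were spread broadly. Trav3-3 had the highest share of variable counts, 7.14 ± 0.950% in GLC and 7.43 ± 0.757% in WT. Its counts were 96, 91, 118, 90, 105 and 108 in GLC replicates 6, 78, 9, 10, 11 and 12, against 137, 111, 143, 103 and 114 in WT replicates 1 to 5. Every library gave it between 90 and 143 counts, and its share differed less between the groups than among the libraries of either. Trav14d-3-dv8, a segment of the duplicated block that can also join delta segments, followed with 6.46 ± 0.998% in GLC and 6.55 ± 0.514% in WT. Next came Trav8d-1 (4.48 ± 0.943% in GLC, 4.96 ± 0.294% in WT), Trav5-1 (3.82 ± 0.899% in GLC, 3.96 ± 1.12% in WT) and Trav9-4 (3.31 ± 0.359% in GLC, 3.42 ± 0.426% in WT). Per kilobase of annotated exon the first 4 kept their order, with Trav3-3 at 20.5 CPM per kb and Trav14d-3-dv8 at 16.8 CPM per kb. Trav7-1 was in 5th place at 10.8 CPM per kb. This scaling used the whole exon, although the part found in no other gene differed among segments. By 50-base stretches Trav5-1 was fully unique, Trav14d-3-dv8 61.2% unique and Trav9-4 44.2%, against 24.9% for Trav7-4 and 21.9% for Trav7d-4. Counts were not scaled for the unique part, so the order ranks assigned counts and not use. The top 10 variable segments of each library held 42.9 ± 0.718% of its variable counts in GLC and 42.5 ± 1.94% in WT.

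**Figure D3:**
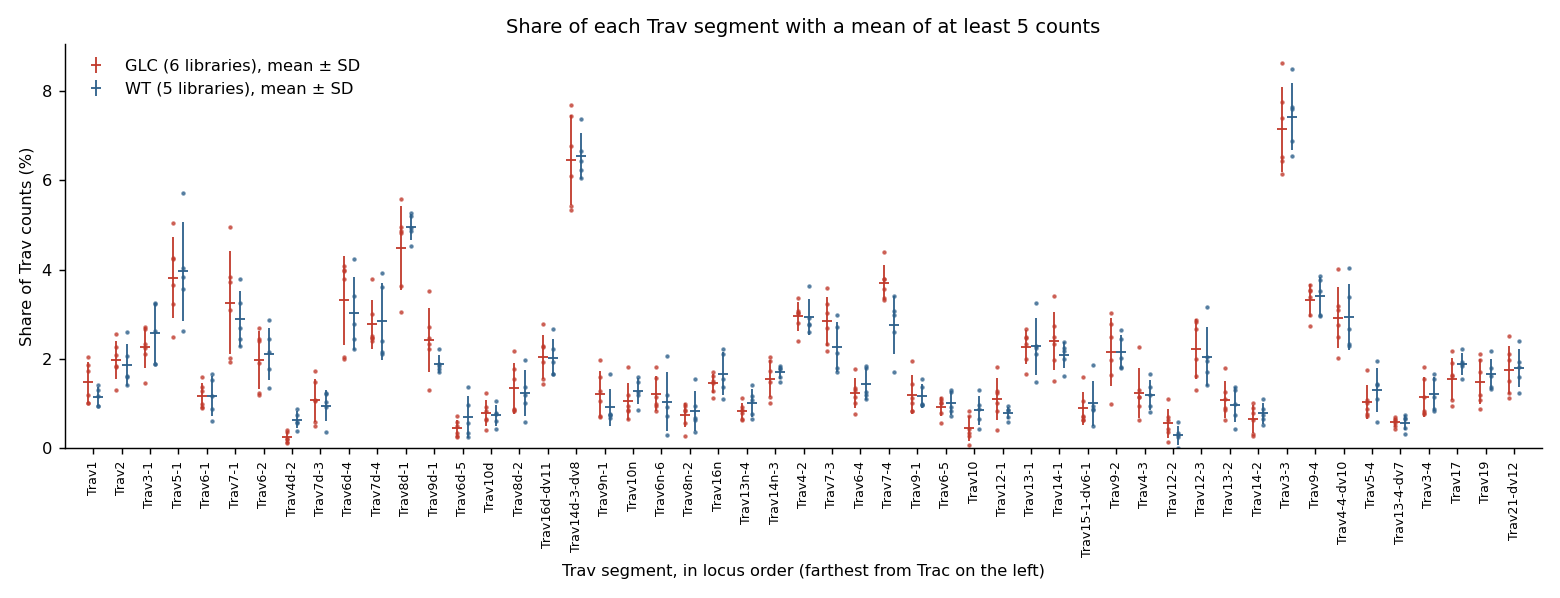
Share of variable segment counts (%, y) for each segment with a mean of at least 5 counts, in locus order with the segment farthest from Trac on the left; points are libraries, bars are means ± SD, with GLC (red, n = 6) left of WT (blue, n = 5). Trav3-3 at 7.14% in GLC and 7.43% in WT and Trav14d-3-dv8 at 6.46% in GLC and 6.55% in WT stand above the rest in both groups.

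Counts were also summed by subgroup, which pools the assigned counts of related copies. Reads assigned to no copy stay out of these sums: 7 of 13 Trav7, 5 of 9 Trav14, 3 of 8 Trav3 and 9 of 15 Trav6 segments had counts. Trav7 was the largest sum at 13.8 ± 1.25% in GLC and 11.8 ± 1.29% in WT, ahead of Trav14 (11.3 ± 1.48% in GLC, 11.3 ± 0.813% in WT), Trav3 (10.6 ± 1.47% in GLC, 11.2 ± 0.612% in WT) and Trav6 (10.6 ± 2.12% in GLC, 10.9 ± 1.97% in WT). Trav7 was the largest in each GLC library but not in WT 2, WT 4 or WT 5, and in WT it lay within the spread of Trav14. The neighbours below it also lay within each other's spread. Segments with d in their symbols held 25.8 ± 1.10% of variable counts in GLC and 26.0 ± 1.15% in WT, and those with n held 8.20 ± 0.783% in GLC and 8.61 ± 0.566% in WT; the copies at 0 counts add nothing to either share.

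Counts were spread over many joining segments. Traj31 had the highest mean share over all 11 libraries, with 4.08 ± 1.02% of joining counts in GLC and 4.09 ± 0.437% in WT, with 34, 22, 24, 22, 25 and 35 counts in GLC replicates 6, 78, 9, 10, 11 and 12 and 25, 28, 37, 24 and 36 in WT replicates 1 to 5. It led in neither group by itself: Traj11 was highest in GLC (4.13 ± 1.08% in GLC, 2.73 ± 0.932% in WT) and Traj15 in WT. By the same overall mean, Traj2 followed with 3.47 ± 1.10% in GLC and 4.14 ± 1.07% in WT, then Traj6 (3.94 ± 0.686% in GLC, 3.56 ± 0.311% in WT), Traj15 (3.34 ± 1.13% in GLC, 4.23 ± 1.87% in WT) and Traj18 (3.65 ± 1.04% in GLC, 3.34 ± 1.14% in WT). These 5 lie within each other's spread, and counts of this size carry a counting error of their own. Per kilobase, Traj31 led at 38.4 CPM per kb, Traj14 came next at 34.2 CPM per kb over its 34 annotated bases, and Trac, far longer, stood at 696 CPM per kb. The place of Traj14 rests on its short annotation, since its share was 2.12%. Read length is not given, so annotated bases may not measure the stretch over which a read could be counted.

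Joining segments far upstream of Trac had lower shares of counts than those near it. A joining segment count need not be a rearranged transcript, and the cause of this pattern was not tested. The 20 segments farthest from Trac (Traj61 to Traj42, 44.7 to 65.5 kb away) had a median share of 0.572%, the 20 in the middle (Traj41 to Traj22) 1.89%, and the 20 nearest (Traj21 to Traj1) 2.32%. Together the farthest 20 held 12.5 ± 3.15% of joining counts in GLC and 13.9 ± 1.06% in WT, the middle 20 held 37.3 ± 2.27% in GLC and 38.1 ± 1.56% in WT, and the nearest 20 held 50.2 ± 4.75% in GLC and 47.9 ± 1.49% in WT. Across the 60 segments, Spearman's rho between distance and mean share was -0.72, and it was -0.74 over the 51 that are not pseudogenes; segments share libraries and are not independent. The relation had the same sign in each library, with rho between -0.50 (GLC 11) and -0.73 (GLC 9). Across the 128 variable segments the same measure was -0.10, and over the 62 that are not pseudogenes and had counts it was 0.22, of the other sign.

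**Figure D4:**
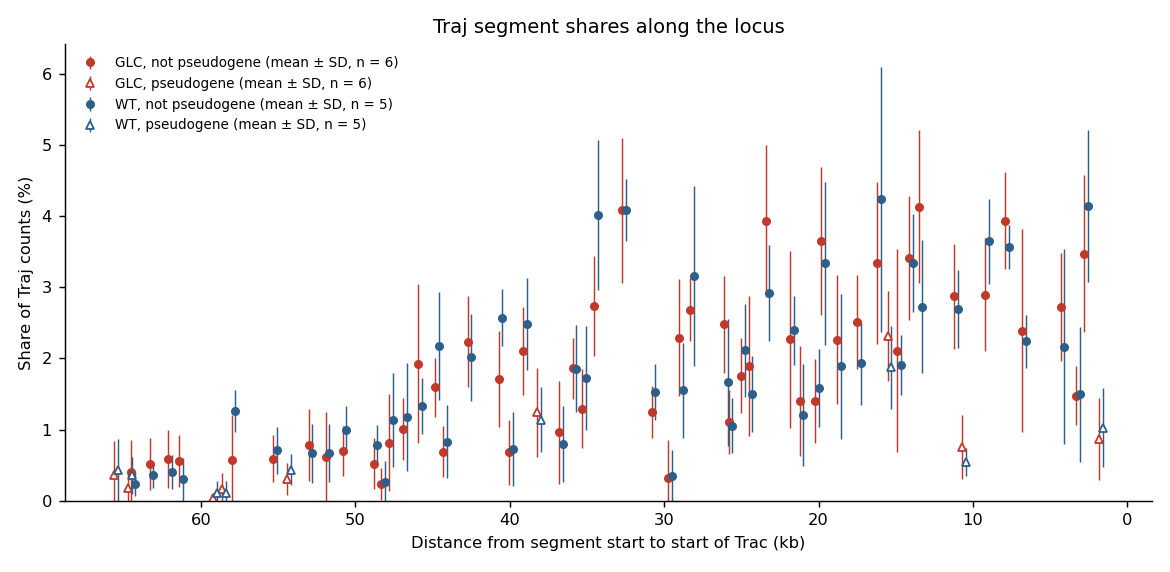
Share of joining segment counts (%, y) against the distance from each segment to the start of Trac (kb, x, nearest on the right); symbols are means and bars SD over 6 GLC libraries (red) and 5 WT libraries (blue), with open triangles for pseudogenes. Over all 11 libraries the 20 segments at 44.7 kb or more from Trac have a median share of 0.572%, below the 2.32% of the nearest 20.

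The groups overlapped in the position of joining counts. The mean distance of a joining count from Trac was 24.7 ± 1.62 kb in GLC, with a range of 23.1 to 27.2 kb, and 25.6 ± 0.600 kb in WT, with a range of 24.9 to 26.3 kb. GLC libraries lay at both ends: in GLC 9 the farthest 20 segments held 7.97% of joining counts and in GLC 11 they held 17.0%, while WT libraries lay between 12.3% and 15%. The lowest joining segment of all was Traj55, a pseudogene in the farthest bin, with a share of 0.0750%. Pseudogenes were not all low in counts, since Traj14 had 163 counts, a share of 2.12%. The 9 joining pseudogenes together held 6.25 ± 0.606% of joining counts in GLC and 6.04 ± 0.923% in WT. Such counts do not show that a pseudogene was used in a joint. Among joining segments that are not pseudogenes, the 44 with this codon motif had a median share of 1.99% and the 7 without it 1.31%. The 44 ran from 0.252% (Traj46) to 4.08% (Traj31), and the 7 lay within that range, from 0.331% (Traj29) to 1.49% (Traj33).

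The segments of invariant T cell receptors could be followed only in part. Traj18, which pairs with Trav11 in invariant natural killer T cells but is also used by other T cells, had 27, 24, 38, 27, 12 and 20 counts in GLC replicates 6, 78, 9, 10, 11 and 12, against 31, 24, 15, 18 and 31 in WT replicates 1 to 5. Its share ran from 1.93% (95% Wilson interval 1.11 to 3.34%) in GLC 11 to 4.44% (3.07 to 6.38%) in GLC 6, and from 1.70% (1.03 to 2.78%) in WT 3 to 4.59% (3.25 to 6.44%) in WT 1; these intervals cover counting error only. High and low libraries occurred in both groups, and the log2 fold change was 0.21 (SE 0.31; edgeR adjusted p = 0.9997). Zbtb16, the transcription factor that defines innate-like T cells, was at 4.04 ± 1.49 CPM in GLC and 4.01 ± 1.84 CPM in WT. Trav1, paired with Traj33 in mucosal-associated invariant T cells, had a share of 1.48 ± 0.453% in GLC and 1.16 ± 0.212% in WT, and Traj33 one of 1.30 ± 0.551% in GLC and 1.72 ± 0.737% in WT. Their differences had opposite signs, both within the spread among libraries (log2 fold change 0.32, SE 0.27, for Trav1 and -0.33, SE 0.40, for Traj33). Counts do not show which variable and joining segments sat on the same transcript.

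The diversity of assigned counts overlapped between the groups. The effective number of segments is the number of equally used segments that would give the same Shannon entropy. For variable segments it was 41.9 ± 0.71 in GLC (40.9 to 42.5) and 42.8 ± 0.906 in WT (41.1 to 43.3). By this index the overlap rested on WT 4, since the other WT libraries, at 43.0 to 43.3, lay above every GLC library. Those WT libraries also had more variable counts, 1613 to 1804, than any GLC library (1369 to 1565) or WT 4 (1348). The part of depth in this was not tested. The inverse Simpson index, which weighs common segments more, ran from 32.6 to 35.3 in GLC and from 32.6 to 35.7 in WT. By that index WT 3, at 34.25, lay below GLC 10, at 35.25. For joining segments it was 43.4 ± 2.11 in GLC (41.5 to 46.3) and 44.5 ± 3.39 in WT (39.0 to 48.1). The lowest value for joining segments was that of WT 1 and the highest that of WT 5, so the WT libraries spanned the whole range. Between 58 and 61 variable segments had counts in a GLC library and between 59 and 61 in a WT library.

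The median likeness of libraries across the groups lay between the medians within GLC and within WT. The overlap of 2 libraries was taken as the summed minimum of their segment shares. For variable segments its median was 85.2% over the 30 pairs of a GLC with a WT library, 84.5% over the 15 pairs within GLC and 85.5% over the 10 pairs within WT. For joining segments the medians were 78.7% across the groups, 77.0% within GLC and 79.1% within WT. The scatter of a segment among libraries was wider than counting alone would give. The ratio of variance to mean, scaled for library size, is 1 for counting error alone, and its median was 2.14 over 51 variable segments and 2.40 over 44 joining segments, against 2.67 over 5252 other genes of like count.

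Of the 189 genes, 82 passed the filter on low counts and were tested between GLC and WT (48 Trav, 33 Traj and Trac); the other 107, 59 of them at 0, were not. No member passed the adjusted p threshold of 0.05 with edgeR's quasi-likelihood test, and neither did any other of the 12404 genes tested (0% called). At an unadjusted p under 0.05 there were 2 members, both higher in GLC, which is 2 of 82 against 4.54% of all genes tested in either direction and 2.75% in that direction; 0 members were lower at that level, against 1.79% of all genes tested. That count of 2 was 0 without WT 2 or without GLC 78 and 4 without WT 3. DESeq2, run without the filter, also called no member and called 2 genes outside the locus. At an unadjusted p under 0.05 it gave 4 of 130 members, against 770 of 26226 genes (2.94%). Over the 48 variable segments the median log2 fold change was -0.05 (17 above 0 and 31 below) and over the 33 joining segments 0.11 (22 above 0 and 11 below), while the median over all genes tested was -0.00016. At these depths the test was coarse: the median 95% interval of a member reached 0.62 to each side on the log2 scale, against 0.25 for all genes tested.

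**Figure D5:**
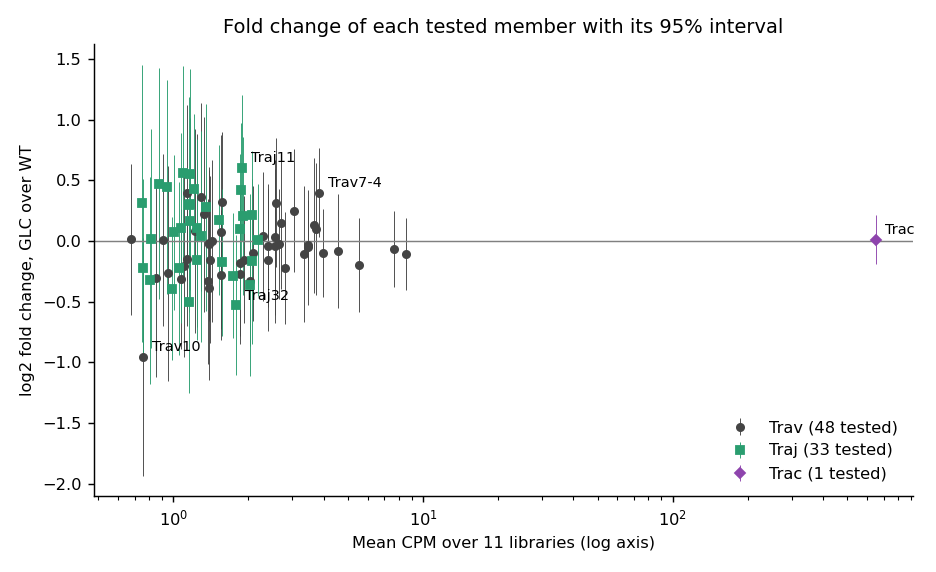
log2 fold change of GLC over WT (y) with its 95% interval against mean CPM over 11 libraries (x, log axis) for the 82 members tested; circles are 48 variable segments, squares 33 joining segments and the diamond is Trac. Trac has the narrowest interval, -0.19 to 0.21, and the intervals of Trav7-4 and Traj11 are the only 2 that exclude 0, with neither passing the adjusted threshold.

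Trav7-4 had the smallest p of the variable segments. It had 56, 62, 46, 46, 54 and 53 counts in GLC replicates 6, 78, 9, 10, 11 and 12, against 31, 42, 52, 46 and 52 in WT replicates 1 to 5. In CPM the groups did not overlap, with 3.88 to 4.76 CPM in GLC and 2.43 to 3.68 CPM in WT. As a share of variable counts they did overlap, with 3.33 to 4.39% in GLC and 1.72 to 3.41% in WT. In CPM it was the only member of the 82 of which every GLC library was above every WT library, a pattern found in 0.153% of all genes tested, and no member had the reverse pattern (0.177%). GLC over WT gave a log2 fold change of 0.40 (SE 0.17, 95% interval 0.03 to 0.77; edgeR adjusted p = 0.9997), with all 6 GLC libraries above the WT mean. Trav7-4 has a near copy in the duplicated block, Trav7d-4, which differs at 2 of 451 bases (C130T and A317C, Trav7-4 base first, counted from 1 at the start of the transcript). The 60 bases around the first of these are shown, with that base in capitals.
Trav7-4: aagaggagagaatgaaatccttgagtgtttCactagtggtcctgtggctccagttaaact
Trav7d-4: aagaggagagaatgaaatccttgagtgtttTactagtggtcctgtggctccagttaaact

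Reads of the pair can be told apart only where they cover one of these bases. The log2 fold change of Trav7d-4 had the other sign, -0.11 (SE 0.26), with 47, 34, 52, 34, 35 and 35 counts in GLC replicates 6, 78, 9, 10, 11 and 12 and 71, 34, 61, 29 and 42 in WT replicates 1 to 5. Its WT 1 value, 71 counts, was the highest of the 11 libraries, and WT 1 was the lowest library for Trav7-4. The sum of the pair was 7.53 ± 0.696 CPM in GLC and 6.75 ± 1.18 CPM in WT, and the 2 groups overlapped in it, with 80 to 103 counts in GLC and 75 to 113 in WT. Summed over the whole Trav7 subgroup the log2 fold change was 0.17 (SE 0.12; edgeR adjusted p = 0.999).

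Traj11 was the other member with an unadjusted p under 0.05. It had 22, 26, 23, 36, 22 and 35 counts in GLC replicates 6, 78, 9, 10, 11 and 12, against 27, 10, 20, 22 and 20 in WT replicates 1 to 5. In CPM the groups overlapped through WT 1, at 2.11 CPM, which lay above 4 of the GLC libraries. Its log2 fold change, GLC over WT, came to 0.60 (SE 0.28; edgeR adjusted p = 0.9997), and the lower end of its 95% interval lay at 0.00012. Next by p were Trav10 (log2 fold change -0.96, SE 0.46), with 0.529 ± 0.351 CPM in GLC and 1.03 ± 0.408 CPM in WT, and Traj32 (-0.53, SE 0.27), with 1.48 ± 0.346 CPM in GLC and 2.15 ± 0.603 CPM in WT. Trav10 rests on 1 to 13 counts per GLC library and 6 to 21 per WT library. Trav17, Trav9d-1, Traj22 and Traj16 completed the smallest p-values by the naming rule, with log2 fold changes of -0.33, 0.31, 0.42 and 0.43 and no unadjusted p under 0.05.

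For a few segments the highest share of any library was a large multiple of the segment's median share over the 11 libraries. This multiple does not show that the library lay apart from all others. For joining segments, Traj27 in WT 1 reached 1.85 times its median share, with 35 counts against 12 to 24 in the other libraries. Traj15 in WT 4 reached 1.77 times and Traj22 in GLC 78 1.74 times. Traj15 had 33, 20, 50, 40 and 12 counts in WT replicates 1 to 5, the widest spread of the named joining segments, and 17 to 34 in GLC. For variable segments, Trav1 in GLC 11 reached 1.70 times its median share, Trav7-1 in GLC 78, the pooled library, 1.60 times and Trav7d-4 in WT 1 also 1.60 times. Of these 6 highest shares, 3 were in GLC libraries and 3 in WT libraries. Other libraries came close for some of them. Traj15 was at 5.95% in WT 4 and reached 5.33% in GLC, and Trav7d-4 was at 3.94% in WT 1 and reached 3.80% in GLC. Trav1 was at 2.04% in GLC 11 and 1.87% in GLC 12.

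The genes that work with the alpha chain were followed in 2 lists. Of 10 partners of the receptor (the CD3 chains, Cd247, both Trbc genes, Cd4, Lck, Zap70 and Ptprc), all tested, 0 passed the adjusted threshold in either direction, 2 had a log2 fold change above 0 and the median was -0.08. Trbc1, a constant region of the beta chain that pairs with the alpha chain, averaged 248 ± 15.7 CPM in GLC and 262 ± 30.9 CPM in WT, and Trbc2 472 ± 35.6 CPM in GLC and 515 ± 50.6 CPM in WT. Cd247, the zeta chain that carries the signal of the receptor into the cell, had the smallest p of the list: it averaged 536 ± 20.8 CPM in GLC and 621 ± 42.5 CPM in WT, lower in each of the 6 GLC libraries than the WT mean, with a log2 fold change of -0.21 (SE 0.06; edgeR adjusted p = 0.9997). Of 12 factors that bind the Tra enhancer or act at the locus, 0 passed and 5 were above 0, with a median of -0.03. Lef1, which bends DNA at that enhancer, had the smallest p, with 512 ± 53.2 CPM in GLC and 589 ± 64.3 CPM in WT (log2 fold change -0.20, SE 0.09; edgeR adjusted p = 0.9997). In each of these lists the gene of smallest p was the one gene with an unadjusted p under 0.05, 1 of 10 and 1 of 12. Of all genes tested, 4.54% had such a p in either direction and 1.79% had one and were lower in GLC. A log2 fold change above 0 was found in 49.9% of all genes tested.

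The recombinase genes were close to absent in both groups. Rag1, part of the recombinase, had 6 counts over the GLC libraries and 0 over the WT libraries, and Rag2, the other part, had 2 in GLC and 1 in WT. Ptcra, the surrogate alpha chain of immature T cells, had 1 count in GLC and 0 in WT. Dntt, which adds bases at the joints, was measurable and averaged 1.49 ± 0.853 CPM in GLC and 2.34 ± 0.604 CPM in WT (log2 fold change -0.65, SE 0.34; edgeR adjusted p = 0.9997).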

How the data were processed

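Per the submitters' processing notes, reads were aligned with STAR and counted with featureCounts on mouse build mm10. Not given in the sources used here are versions, annotation, read length, strand setting, and how multi-mapping reads and reads touching several genes were handled. Such settings decide how reads over a joint or from near-identical copies are counted, so a joining segment count need not be a rearranged transcript. The authors deposited whole-number counts per gene for 11 libraries, not normalized. GENCODE M21 (GRCm38) matched 55230 of 55471 gene identifiers; unmatched ones held 0.0029% of counts. Samples were grouped by title, and 0 value columns lacked a sample. Between pairs of libraries the chi-square per degree of freedom over genes was 9.48 to 62.8, so none was taken as a copy.

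The test was that of edgeR 4.0.16 under R 4.3.3: filterByExpr by group (12404 genes), TMM scaling, glmQLFit and glmQLFTest, two-sided, Benjamini-Hochberg over all genes tested. The calculation was also run on simulated counts, with changes put into genes drawn at random from all genes tested. That run was not aimed at segments with few counts and does not show how small a change in them could be found. CPM use TMM-scaled library sizes. Alternatives used DESeq2 1.42.0 and limma 3.58.1 (voom), other scalings and filters, and each library left out. Shares divide a segment's counts by all Trav or all Traj counts of its library; sums and indices over members got no test. Members and gene lists were chosen with earlier results of these data known. Segments were named by rule: Trac, the segments of invariant receptors, the 5 Trav and 5 Traj of highest mean share, the 4 of smallest p in each kind, and the 3 in each kind, with a mean of at least 20 counts, whose highest share was the largest multiple of its median. Intervals of single-library shares are 95% Wilson intervals.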

Additional observations from a re-analysis of the deposited data

Results flagged for a closer look

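In 66 groups of library values examined for a library apart from the rest of its group, 3 were found, where chance flags about 1 group in 20. GLC 9 had a summed joining segment level of 74.3 CPM, with the other GLC libraries at 45.0 to 54.8 CPM. Its levels of the nuclear RNAs Malat1 and Neat1 were 18074 and 739 CPM; GLC 12 had 17713 CPM of Malat1 and 778 CPM of Neat1 with a summed joining level of 54.8 CPM. The part of these RNAs in the result was not tested. GLC 6 had a Traj16 share of 3.78% of joining counts (23 of 608 counts, 95% Wilson interval 2.53 to 5.61%), with the other GLC libraries at 1.88 to 2.53%. WT 4 had an effective number of variable segments of 41.1, with the other WT libraries at 43.0 to 43.3.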

How the results depend on the processing

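No paired analysis was possible because the GLC and WT libraries share no replicate numbers. The count of members past an adjusted p of 0.05 was 0 under every alternative run: other scalings, filters and tools, the summed Trav counts as library size, immunoglobulin genes left out, B cell markers as a covariate, subgroup sums, an adjusted p of 0.1, and leave-one-out fits (0 to 0). With GLC 9 and 78 left out together, a choice made after seeing the data, it was also 0. The count over all genes was 0 in the fit reported, 1 with no filter and 2 with DESeq2; with each library left out it was 0 to 0. The ratio of GLC to WT means turned without WT 1 for summed Trav CPM (leave-one-out range 0.939 to 1.01) and without GLC 9 or WT 2 for summed Traj CPM (0.957 to 1.07). The number of members at an unadjusted p under 0.05 was 0 to 4 over leave-one-out fits. Leaving out single libraries moved the log2 fold change of Trac between -0.0302 and 0.0727, and it was below 0 without WT 4 (-0.0283), WT 5 (-0.0133), GLC 6 (-0.0302), GLC 9 (-0.00725) or GLC 11 (-0.00824). Leave-one-out ranges that crossed 0 were -0.203 to 0.0247 for Trav5-1, -0.146 to 0.0047 for Trav9-4, -0.229 to 0.114 for Trav7d-4, -0.291 to 0.0673 for Traj27 and -0.0629 to 0.0831 for Traj31. Signs also turned without GLC 9 and 78 together for Trav5-1 (0.0242) and Trav7-1 (-0.095), and with limma-voom for Traj31 (-0.00565). The sums of the Trav9 subgroup of 11 segments (0.0667) and the Trav7 subgroup of 13 segments (0.172) are other quantities. Their signs were opposite to those of Trav9-4 and Trav7d-4. The cause was not tested. Each value of turned or opposite sign was smaller than its standard error, except the Trav7 sum (SE 0.12). Trav10 had no value at a filter of 1 CPM in 5 libraries. With no filter 130 members were tested; the smallest p-values were those of Trav4d-2 (log2 fold change -1.35, SE 0.49) and Trav12-4 (-2.12, SE 0.88), both with an edgeR adjusted p of 0.701, both pseudogenes named after their values were seen. Depth and the handling of reads from near-identical copies both limit these values, and they were not compared: 59 of 128 variable segments were at 0, and the median variable segment with unique stretches had 144 counts over all 11 libraries.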
